A study of Mus musculus with 12 samples.

Results

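The autophagy machinery is described here through 34 genes, taken by symbol from the deposited count table of 32238 genes. All 34 passed the filter on low counts, as did 20297 genes in all. The tissue was gonadal white adipose tissue of mice, sequenced in 12 libraries with 3 biological replicates in each of 4 groups. MKO HFD were mice that lack Bnip3 in macrophages, fed a high-fat diet (HFD), and MKO NCD were mice of the same genotype on normal chow (NCD). WT HFD and WT NCD were wild-type mice on these diets. Feeding began at 8 weeks of age and lasted 12 weeks in every group. The Cre driver behind the macrophage deletion, its efficiency and the background strain are not given in the sources used here. BNIP3 is a receptor on the outer mitochondrial membrane that hands mitochondria to the autophagy machinery.

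In macroautophagy a double membrane closes around cytoplasm or a damaged organelle and then fuses with a lysosome, where the contents are broken down. A kinase complex around ULK1 starts the process, a lipid kinase complex around PIK3C3 and Beclin 1 marks the membrane, and a ubiquitin-like conjugation system attaches LC3 and GABARAP proteins to it, to which cargo receptors such as p62 bind. The pathway runs in adipocytes, where it is known for its part in fat cell differentiation, and in macrophages, where it meets lysosomal lipid handling. Levels are given as CPM, counts scaled to library size, for 1 gene across libraries and as TPM, which are also scaled by transcript length, for different genes. Each change is on the log2 scale, with its standard error (SE) and a p-value of the edgeR quasi-likelihood test adjusted by Benjamini-Hochberg over the 20297 genes, with a threshold of 0.05.

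The libraries held 52.9 to 72.7 M counts, and the lowest count of any member in any library was 519. The adipocyte markers Adipoq and Plin1 were high in all 12 libraries, the lowest values being 1230 CPM for Adipoq and 549.7 CPM for Plin1. Bnip3 read 414.7 to 475.7 CPM in MKO HFD and 357.5 to 417.6 CPM in WT HFD, and 547 to 811 CPM in MKO NCD against 392.4 to 568 CPM in WT NCD. It passed no comparison, and whole-tissue counts of a gene deleted in macrophages alone do not check the label. Markers of the epididymis, the organ this fat lies along, summed to 0.961 CPM or less in the 6 HFD libraries and to 20.02 CPM or less in MKO NCD, against 6354 to 6886 CPM in WT NCD. The MKO NCD replicate 2 library read 0 for 57.3% of genes, against 15.6 to 38.3% in the other libraries, with 702 genes at 0 that had at least 100 counts in every other library, although no member was among them. Some members still stood apart in that library, such as Ulk1 at 25.4 CPM against 52.5 and 48.5 CPM in MKO NCD replicates 1 and 3. Atg14 read 8.33 CPM there against 17.0 and 18.1 CPM, and Pik3c3 24.4 CPM against 36.4 and 37.3 CPM. Others did not, such as Becn1 at 92.2 CPM against 91.7 and 85.8 CPM.

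By mean TPM over all libraries the members spanned 8.54 TPM for Atg14 to 441 TPM for Gabarap. Gabarap was followed by Sqstm1 (326 TPM), Rab7 (313 TPM), Gabarapl1 (201 TPM) and Map1lc3a (165 TPM), which are LC3 and GABARAP proteins, the receptor p62 and the late endosome GTPase RAB7. The components that start and build the membrane were lower than these, with Becn1 the highest of them at 94.3 TPM and Wipi2 at 43.9 TPM. Atg9a, the lipid scramblase of the seed vesicles, averaged 20.9 TPM, Ulk1 17.9 TPM and Pik3r4, the regulatory subunit of the lipid kinase, 13.2 TPM. Group means differed little. The fold between the highest and the lowest group mean was under 1.5 for 26 of 34 members (76.5%), against 6080 of 20297 tested genes (29.96%). Its median was 1.35-fold in members and 1.998-fold in all tested genes, while the median coefficient of variation within groups was 8.80% in members and 21.4% in all tested genes. The tested genes were not matched to the members in level and include genes with low counts. The part of level in these contrasts was not tested.

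**Figure D1:**
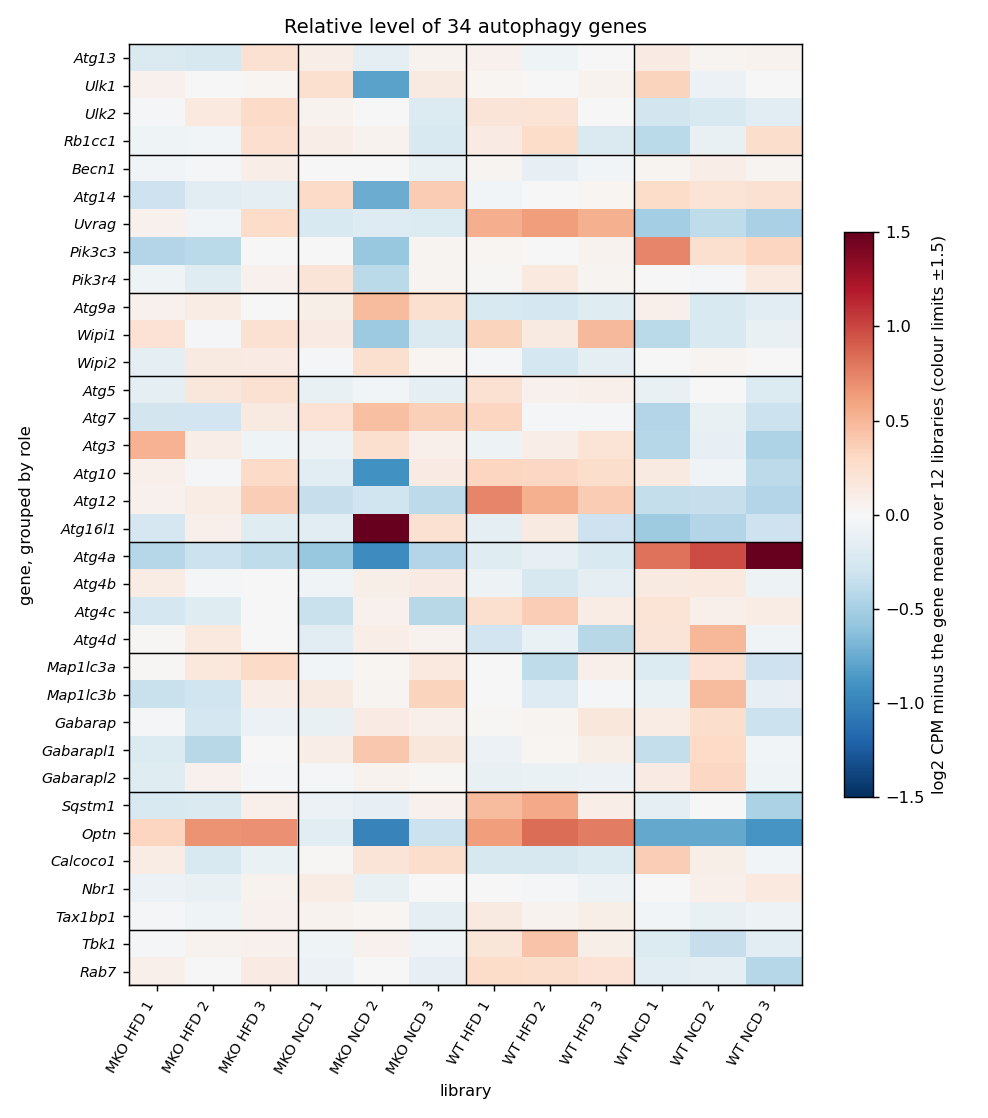
Each cell shows log2 CPM minus the mean of that gene over the 12 libraries, for 34 autophagy genes grouped by role (vertical axis) and the libraries of 4 groups (horizontal axis); the colour scale ends at 1.5 log2 units either way. Optn, Uvrag and Atg12 are red in the WT HFD columns, Atg4a in the WT NCD columns, and Atg16l1 in the single MKO NCD replicate 2 column, while most other cells stay pale.

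Of the 34 members, 28 had a promoter in the RefSeq table (build GRCm38.p6). The letters of the GC box (GGGCGG) occurred on either strand in the 250 bases before a start site in 20 of these 28 members (71.4%), against 35.4% of 27025 genes. CCAAT occurred in 8 of 28 (28.6%) against 37.5% of genes. The core CACGTG of the element read by the TFEB family of lysosome and autophagy regulators occurred in 3 of 28 members (10.7%) against 6.86% of genes. The forkhead letters GTAAACA occurred in 0 of 28 against 3.54%, and TGACNNNGC, the core of the antioxidant response element, in 4 of 28 (14.3%) against 11.5%. A match is a description of the letters and not evidence of binding, and genes with several start sites had more than one window to match. The 27025 genes were not matched to the members in expression or gene type, so these shares do not set the members apart from similar genes.

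The windows of Uvrag, Wipi1, Tbk1 and Rab7 are printed because these 4 genes rose with HFD in WT fat, as given below, and because the letters lie outside the annotated genes and exons. Capitals mark GGGCGG or CCAAT on either strand, and the letters read 5' to 3' toward the start site.
Uvrag, chr7:99141168-99141394 (- strand): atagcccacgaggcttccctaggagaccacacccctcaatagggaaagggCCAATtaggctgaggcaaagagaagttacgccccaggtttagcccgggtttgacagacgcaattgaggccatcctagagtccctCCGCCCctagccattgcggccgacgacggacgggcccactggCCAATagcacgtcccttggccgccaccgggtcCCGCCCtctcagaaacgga
Wipi1, chr11:109611433-109611639 (- strand): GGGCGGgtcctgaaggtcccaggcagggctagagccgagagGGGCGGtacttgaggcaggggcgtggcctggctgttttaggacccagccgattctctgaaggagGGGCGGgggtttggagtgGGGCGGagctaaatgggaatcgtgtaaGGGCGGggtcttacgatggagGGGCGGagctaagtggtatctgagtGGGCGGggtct
Tbk1, chr10:121586795-121587044 (- strand): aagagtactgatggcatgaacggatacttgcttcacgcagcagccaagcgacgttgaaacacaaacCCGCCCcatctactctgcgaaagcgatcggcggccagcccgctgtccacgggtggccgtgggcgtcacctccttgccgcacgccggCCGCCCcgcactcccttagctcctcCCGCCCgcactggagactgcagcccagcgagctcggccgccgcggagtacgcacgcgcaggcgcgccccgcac
Rab7, chr6:88045271-88045520 (- strand): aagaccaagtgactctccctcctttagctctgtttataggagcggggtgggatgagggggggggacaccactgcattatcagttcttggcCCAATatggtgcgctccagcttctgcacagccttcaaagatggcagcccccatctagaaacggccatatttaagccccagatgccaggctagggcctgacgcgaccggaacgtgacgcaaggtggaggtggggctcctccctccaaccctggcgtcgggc
The Wipi1 window carries the GC box letters 7 times in 207 bases and CCAAT 0 times. Uvrag has both 2 times each, Tbk1 has 3 GC boxes, and the Rab7 window has 1 CCAAT and 0 GC boxes. Rab7 is still counted above among the members with GC box letters, through the window of another start site that is not printed. None of the 4 printed windows holds CACGTG. The members that do hold it are 3 genes of the conjugation system, shown with its letters in capitals.
Atg3, chr16:45158735-45158763 (+ strand): CACGTGtcctgggagagtcgagtCACGTG
Atg5, chr10:44268313-44268338 (+ strand): cggagcgcttgcCACGTGgtcttggt
Atg7, chr6:114670952-114670981 (+ strand): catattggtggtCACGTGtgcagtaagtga
The stretch of Atg3, the enzyme that transfers LC3 to lipid, holds CACGTG 2 times within 29 bases. The Atg7 stretch lies inside the gene, before an alternative start. The Atg5 stretch ends at the base before 1 start site and reaches into the annotated gene span, which begins further upstream.

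High-fat feeding in WT mice was the comparison with the most members called. Of the 34 members 8 rose and 1 fell in edgeR, against 9.5% of all tested genes that rose and 8.28% that fell, or 17.8% in either direction. An unadjusted p under 0.05 was reached by 13 of 34 members (38.2%), against 31.5% of all tested genes. The genes that rose were Optn, Sqstm1, Tbk1, Uvrag, Wipi1, Ulk2, Atg12 and Rab7, and the gene that fell was Atg4a. For each of the 9 the 3 WT HFD libraries and the 3 WT NCD libraries did not overlap. These genes were called from the same values, so this is not separate support. The share of all tested genes without overlap was not counted. The median log2 fold change of the members was 0.03, against -0.09 over all tested genes. DESeq2 called 5 members lower in this comparison. In the paragraphs on WT below, passing refers to the edgeR test. In whole tissue, fewer cells of a type and less RNA per cell cannot be told apart.

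Among the cargo receptors, 2 of 5 rose. Optn encodes optineurin, a receptor for ubiquitinated mitochondria and bacteria that is switched on by the kinase TBK1. It read 121, 140.4 and 133 CPM in WT HFD, against 46.1, 46.0 and 42.5 CPM in WT NCD. Every WT HFD library lay far above the highest WT NCD library, and the change was 1.55 (SE 0.19, adjusted p = 5.32e-04). Sqstm1 encodes p62, which binds ubiquitin and LC3 and is itself degraded by autophagy. It read 430.5, 459.7 and 334 CPM in WT HFD and 281, 309.5 and 223 CPM in WT NCD, and WT HFD replicate 3 sat closest to the chow libraries. The change was 0.59 (SE 0.16, adjusted p = 0.0257). The receptors Calcoco1 (-0.38), Nbr1 (-0.11) and Tax1bp1 (0.17) did not pass.

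The kinase and the endosome GTPase set beside the receptors both rose. Tbk1, whose kinase phosphorylates optineurin and p62, read 51.4, 61.0 and 48.4 CPM in WT HFD and 39.6, 35.8 and 40.4 CPM in WT NCD, a change of 0.47 (SE 0.11, adjusted p = 0.0123). WT HFD replicate 2 stood above the other libraries of its group. Rab7, which directs late endosomes and autophagosomes to lysosomes, averaged 390 ± 8.05 CPM in WT HFD against 278 ± 30.03 CPM in WT NCD (SD, n = 3 each), a change of 0.49 (SE 0.10, adjusted p = 0.00720). The groups did not overlap, and WT NCD replicate 3 was the lowest library at 243 CPM, with 294 and 297 CPM in the other 2.

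In the lipid kinase complex, 1 of 5 members rose. Uvrag, a subunit that takes the place of ATG14 in the complex acting on later endosomal steps, read 58.6, 62.0 and 58.2 CPM in WT HFD and 28.2, 30.8 and 28.5 CPM in WT NCD. The groups were tight and far apart, with a change of 1.03 (SE 0.10, adjusted p = 2.26e-04). Its partners in the complex did not pass: Becn1 (Beclin 1) had a change of -0.10 with a 95% interval of -0.29 to 0.09, and Atg14 had -0.24 with an interval of -0.78 to 0.29. Pik3c3, the catalytic subunit, averaged 36.9 ± 0.854 CPM in WT HFD and 49.2 ± 9.32 CPM in WT NCD (SD, n = 3 each), a difference of -0.42 that did not pass.

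In the conjugation system, 1 of 6 members rose. Atg12, the ubiquitin-like protein joined to ATG5, read 127, 110.5 and 99.3 CPM in WT HFD against 59.7, 60.3 and 56.3 CPM in WT NCD, a change of 0.93 (SE 0.11, adjusted p = 5.24e-04). All 6 members of the system had positive estimates, from 0.23 for Atg5, the partner of ATG12, to 0.93, and 5 did not pass. Estimates were positive for 19 of all 34 members and for 9132 of 20297 tested genes. Of the genes that handle lipid and membrane, Wipi1, which reads phosphatidylinositol 3-phosphate on the forming membrane, rose by 0.57 (SE 0.17, adjusted p = 0.0424), with 42.8, 37.1 and 47.3 CPM in WT HFD and 25.5, 29.0 and 31.4 CPM in WT NCD. Its paralogue Wipi2 (-0.16) and Atg9a (-0.12) did not pass. In the kinase complex, Ulk2, a relative of ULK1, rose by 0.36 (SE 0.11, adjusted p = 0.0484), while Ulk1 had an estimate of -0.07 with an interval of -0.56 to 0.42.

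Atg4a, 1 of the 4 proteases that trim LC3 and GABARAP before they can be attached to lipid, was the gene that fell in edgeR. It read 27.7, 29.0 and 26.9 CPM in WT HFD against 55.4, 62.2 and 111 CPM in WT NCD, a change of -1.45 (SE 0.23, adjusted p = 0.00198). WT NCD replicate 3 stood far above the other 2 libraries of its group, and the WT NCD libraries are the ones with the epididymis transcripts given above. Those libraries enter each change given for WT, and diet and that tissue cannot be told apart. Its relatives Atg4b (-0.22), Atg4c (0.11) and Atg4d (-0.49) did not pass. None of the 5 LC3 and GABARAP genes passed, with changes between -0.23 for Gabarapl2 and 0.04 for Gabarap and a lowest adjusted p of 0.183.

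**Figure D2:**
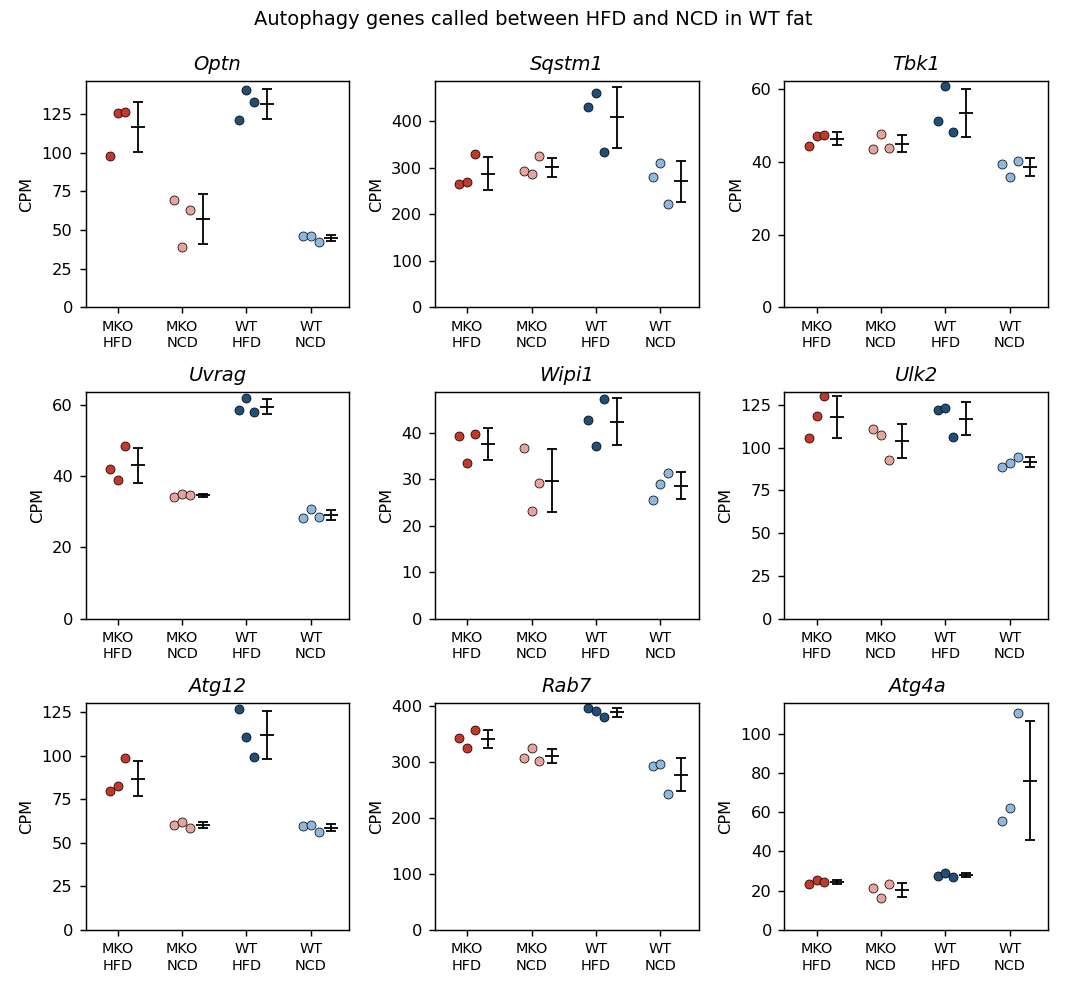
CPM of each library (points) with the group mean and SD (bars, n = 3) for the 9 members that passed between WT HFD and WT NCD; all axes start at 0. Optn sits at 121 to 140.4 CPM in WT HFD and at 42.5 to 46.1 CPM in WT NCD, and Atg4a is high in the WT NCD libraries.

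The calls for Uvrag, Atg12, Optn, Atg4a and Rab7 held with each of the 12 libraries left out in turn. That of Tbk1 was lost without WT HFD replicate 2 (0.37, adjusted p = 0.0593), and that of Sqstm1 without WT HFD replicate 1 or 2 or WT NCD replicate 1 or 3 (adjusted p up to 0.108) and in a fit of 6 libraries (adjusted p = 0.0638). Of these leave-outs, Wipi1 kept its call only without MKO NCD replicate 1 or 2 (adjusted p up to 0.141 without the others), and Ulk2 only without MKO HFD replicate 1, MKO NCD replicate 2 or 3 or WT HFD replicate 3 (up to 0.181), and both were lost with RLE or upper-quartile size factors or no count filter (up to 0.0995). Macrophage markers moved beside this comparison. The 19 markers summed to 4434 to 7404 CPM in WT HFD and 643 to 1469 CPM in WT NCD, with 16 of 19 higher and a median change of 2.14. Adipocyte markers fell for 8 of 14. Fibroblast and progenitor markers rose for 5 of 8 and summed to 4393 to 5969 CPM in WT HFD against 1386 to 2790 CPM in WT NCD, and markers of neutrophils and monocytes rose for 2 of 5 and summed to 151 to 171 CPM in WT HFD against 27.8 to 54.2 CPM in WT NCD. The part of these cell types in the members' changes was not tested.

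High-fat feeding in MKO mice moved 2 members, both higher, and 0 lower in edgeR. Of all tested genes 1.04% rose, 0.966% fell and 2.01% did either. At an unadjusted p under 0.05 were 6 of 34 members (17.6%), against 17.0% of all tested genes. DESeq2 called 3 members higher and 1 lower. Optn read 97.7, 126 and 126 CPM in MKO HFD and 69.4, 39.1 and 62.9 CPM in MKO NCD, a change of 1.03 (SE 0.19, adjusted p = 0.0243). The lowest MKO HFD library lay above the highest MKO NCD library, although the chow libraries spread widely. The lowest of them, at 39.1 CPM, was MKO NCD replicate 2, the library with many genes at 0. Atg12 read 79.5, 82.4 and 98.6 CPM in MKO HFD against 60.2, 61.9 and 58.4 CPM in MKO NCD, a change of 0.53 (SE 0.11, adjusted p = 0.0421). Both genes also rose in WT fat.

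The remaining members with the smallest p did not pass in MKO by edgeR, although DESeq2 called Uvrag higher (0.30, adjusted p = 0.0324) and Atg7 lower (-0.48, adjusted p = 0.0362). Atg7, the E1-like enzyme of the conjugation system, had -0.47 (interval -0.80 to -0.14, adjusted p = 0.147), with 44.5, 43.8 and 58.9 CPM in MKO HFD and 62.4, 73.2 and 68.8 CPM in MKO NCD. Uvrag had 0.31 (interval 0.09 to 0.54, adjusted p = 0.156) and Gabarapl1, a GABARAP protein, had -0.42 (interval -0.79 to -0.05, adjusted p = 0.235). Sqstm1 averaged 288 ± 35.7 CPM in MKO HFD against 301 ± 20.4 CPM in MKO NCD (SD, n = 3 each), a difference of -0.07 with an interval of -0.41 to 0.28. Macrophage markers in MKO summed to 737 to 1983 CPM on HFD and 807 to 1145 CPM on NCD, with 0 of 19 passing in edgeR and 4 at an unadjusted p under 0.05. The Atg12 call was lost with any 1 of the 12 libraries left out (adjusted p 0.0507 to 0.168), and that of Optn without MKO HFD replicate 2, MKO HFD replicate 3 or MKO NCD replicate 3 (adjusted p 0.0680 to 0.0921) and in a fit of 6 libraries (0.142).

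**Figure D3:**
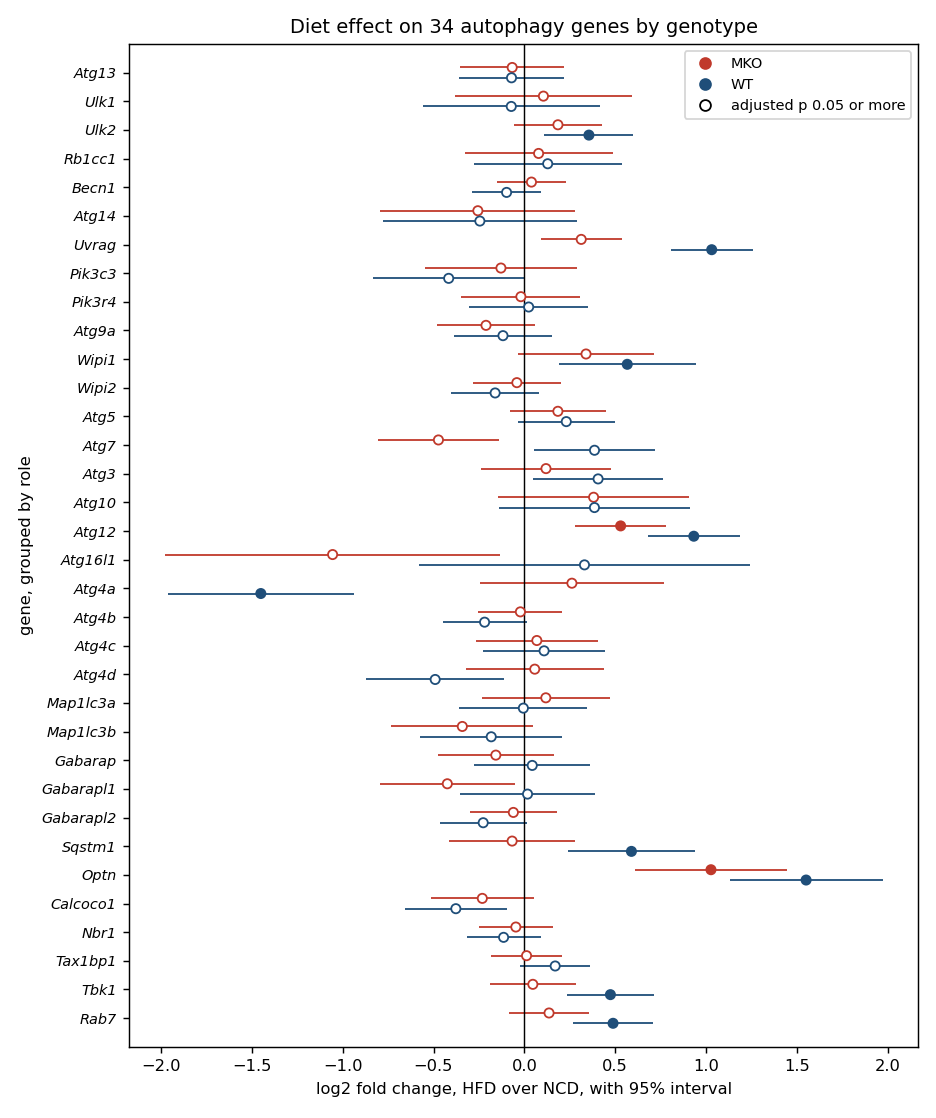
The log2 fold change of HFD over NCD for each of the 34 members, grouped by role (vertical axis), with its 95% interval (lines), in MKO (red) and WT (blue); filled points passed the adjusted p threshold and open points did not. Uvrag is at 0.31 in MKO and 1.03 in WT, and Atg4a at 0.26 in MKO and -1.45 in WT, while most other pairs overlap.

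The test of the difference between these diet effects, MKO minus WT, called 0 members, against 0.118% of all tested genes higher and 0.143% lower, or 0.261% in either direction. At an unadjusted p under 0.05 were 9 of 34 members (26.5%), against 13.1% of all tested genes. DESeq2 called 1 higher and 2 lower, namely Atg4a higher and Uvrag and Atg7 lower. Uvrag had a difference of -0.72 (SE 0.14, interval -1.03 to -0.40, adjusted p = 0.0565), the diet effect being 0.31 in MKO and 1.03 in WT. Atg4a had 1.71 (SE 0.33, adjusted p = 0.0565) with diet effects of 0.26 in MKO and -1.45 in WT. The WT NCD libraries that carry epididymis transcripts enter this and every other difference of diet effects. Atg7 had -0.86 (SE 0.21, adjusted p = 0.0965), with -0.47 in MKO and 0.39 in WT. Sqstm1 (-0.66, adjusted p = 0.216) and Tbk1 (-0.43, adjusted p = 0.244) followed. Uvrag and Atg7 passed when MKO HFD replicate 3 was left out (adjusted p = 0.0252 and 0.0396), as did Atg4a (adjusted p = 0.04998), and Atg4a also passed without WT NCD replicate 3 (1.35, adjusted p = 0.0273).

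Between genotypes on chow, 1 member was higher in MKO and 1 lower, against 2.22% and 2.13% of all tested genes, or 4.35% in either direction. An unadjusted p under 0.05 was reached by 8 of 34 members (23.5%), against 19.7% of all tested genes. Atg4a read 21.3, 16.4 and 23.2 CPM in MKO NCD and 55.4, 62.2 and 111 CPM in WT NCD, a change of -1.91 (SE 0.24, adjusted p = 0.00220). Its groups did not overlap. The epididymis transcripts in the WT NCD libraries and the genotype cannot be told apart, for this gene or any other change given on chow. For Atg4a the 6 HFD libraries, which lack the epididymis transcripts too, read 23.4 to 29.0 CPM. The call was lost in a fit of only the 6 chow libraries (adjusted p = 0.0685). Atg7 read 62.4, 73.2 and 68.8 CPM in MKO NCD against 39.6, 49.5 and 43.1 CPM in WT NCD, a change of 0.63 (SE 0.15, adjusted p = 0.0434). That call was lost with any 1 of 10 libraries left out (adjusted p up to 0.137), held without MKO HFD replicate 3 or WT HFD replicate 1, and was lost with RLE size factors, no count filter or 6 libraries (0.0566 to 0.121).

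Atg16l1, whose product places LC3 conjugation at the membrane, had an estimate of 1.37 that did not pass (SE 0.42, adjusted p = 0.0916). It read 49.4, 204.5 and 64.4 CPM in MKO NCD and 37.9, 40.7 and 44.3 CPM in WT NCD. The groups did not overlap, and the estimate was 0.48 (adjusted p = 0.133) without MKO NCD replicate 2, the library with many genes at 0, and 1.72 (adjusted p = 0.0378) without MKO NCD replicate 1. Atg9a (0.38, adjusted p = 0.106) and Pik3c3 (-0.59, adjusted p = 0.107) did not pass. DESeq2 called Atg16l1 (1.31, adjusted p = 0.0215) and Pik3c3 (-0.64, adjusted p = 0.0303). In the authors' deposited table, with its own adjusted p, the calls among members for this comparison were Atg7, 1.48-fold higher (adjusted p = 0.00254), and Atg4a at -3.95-fold, the minus sign meaning lower in MKO (adjusted p = 8.70e-07), against 7.74% of genes called.

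Between genotypes on HFD, Uvrag alone passed among members, with 0 higher and 1 lower, against 1.34% and 2.24% of all tested genes, or 3.57% in either direction. At an unadjusted p under 0.05 were 5 of 34 members (14.7%), against 15.1% of all tested genes. Uvrag read 41.9, 39.0 and 48.5 CPM in MKO HFD and 58.6, 62.0 and 58.2 CPM in WT HFD, a change of -0.47 (SE 0.10, adjusted p = 0.0326). The groups did not overlap, and the MKO HFD libraries lay above all MKO NCD libraries, which read 34.2 to 35.1 CPM. The call was lost without MKO HFD replicate 1 or 2, MKO NCD replicate 1 or any WT HFD library (adjusted p 0.0513 to 0.182) and without a count filter (adjusted p = 0.0610).

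Sqstm1 read 265, 269 and 329 CPM in MKO HFD against 430.5, 459.7 and 334 CPM in WT HFD, a change of -0.50 (interval -0.85 to -0.16, adjusted p = 0.123), and Atg12 averaged 86.8 ± 10.3 CPM in MKO HFD against 112 ± 13.7 CPM in WT HFD, a change of -0.37 (adjusted p = 0.119). DESeq2 called both (adjusted p = 0.0113 for Sqstm1 and 0.00965 for Atg12). Atg4c (-0.38, adjusted p = 0.246) and Atg9a (0.29, adjusted p = 0.292) did not pass. Optn, which rose with HFD in both genotypes, differed by -0.18 with an interval of -0.59 to 0.24. In the authors' deposited table the calls were Sqstm1 at -1.42-fold (adjusted p = 0.0181) and Uvrag at -1.38-fold (adjusted p = 0.00792), against 17.4% of genes called.

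Macrophage markers moved beside these members on HFD as well. They summed to 737 to 1983 CPM in MKO HFD and 4434 to 7404 CPM in WT HFD, and 13 of 19 were lower with a median of -2.13, while 9 of 14 adipocyte markers were higher. Fibroblast and progenitor markers were lower for 4 of 8 (median -1.11), with sums of 1866 to 2687 CPM in MKO HFD and 4393 to 5969 CPM in WT HFD. Markers of neutrophils and monocytes were lower for 1 of 5, with sums of 51.0 to 66.0 CPM in MKO HFD and 151 to 171 CPM in WT HFD. Every macrophage marker was above 0 in each HFD library. In MKO HFD replicates 1, 2 and 3 the macrophage marker sums were 1080, 737 and 1983 CPM. Uvrag read 41.9, 39.0 and 48.5 CPM in these libraries, and Optn 97.7, 126 and 126 CPM. The part of these cell types in the values of the members was not tested.

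**Figure D4:**
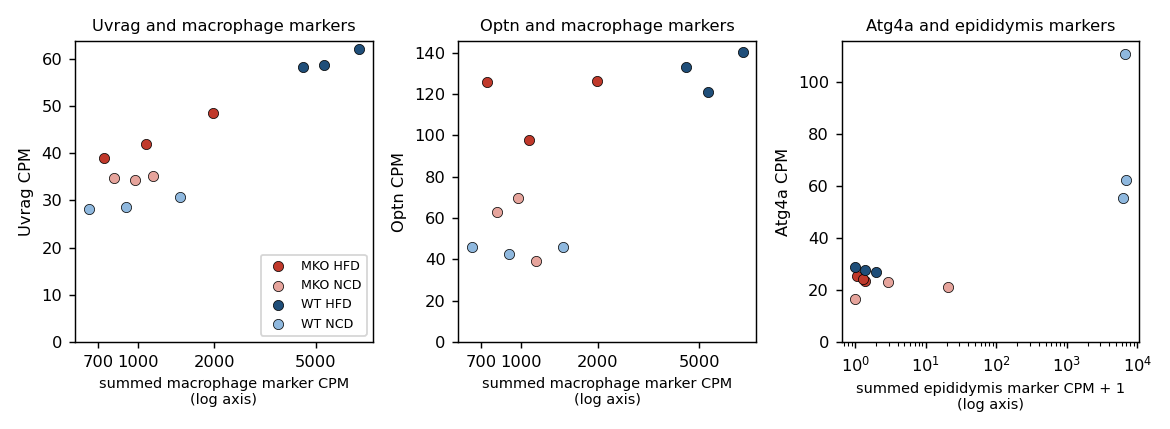
Uvrag (left) and Optn (centre) in CPM against the summed CPM of 19 macrophage markers, and Atg4a (right) against the summed CPM of epididymis markers plus 1, on logarithmic horizontal axes; each point is 1 library, coloured by group. The WT HFD libraries lie at 4434 to 7404 CPM of macrophage markers, and the 3 WT NCD libraries, at 55.4 to 111 CPM of Atg4a, lie at 6354 to 6886 CPM of epididymis markers.

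Of 36 further autophagy genes, 35 were tested, and in WT fat 7 rose and 1 fell with HFD, against 9.5% and 8.28% of all tested genes. Vps41 and Vps39, subunits of the HOPS complex that tethers autophagosomes to lysosomes, rose by 0.82 (adjusted p = 0.00205) and 0.43 (adjusted p = 0.0228). Plekhm1, an adaptor that joins RAB7, LC3 and HOPS, rose by 0.67 (adjusted p = 0.00411), and Tecpr1, which works at autophagosome fusion, by 0.45 (adjusted p = 0.0118). Trp53inp2, a regulator that binds LC3 and GABARAP proteins, rose by 2.69 (adjusted p = 0.00279), and Wdr45, a relative of the WIPI proteins, fell by 0.71 (adjusted p = 0.0103). In MKO, 0 rose and 1 fell, the HOPS subunit Vps11 (-0.68, adjusted p = 0.0222), against 1.04% and 0.966% of all tested genes. Leaving out 1 WT library ended the calls of Vps39 in 5 cases, Tecpr1 in 2 and Wdr45 in 1 (adjusted p up to 0.0942), and that of Vps11 ended without any MKO HFD library or MKO NCD replicate 3 (up to 0.0892) and in a fit of 6 libraries (0.115).

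On chow, 4 of the 35 further genes were higher in MKO than in WT and 0 were lower, against 2.22% and 2.13% of all tested genes. Adipocyte markers leaned the same way, with 14 of 14 estimates positive, 2 called and a median of 0.60, and their part in these values was not tested. Genotype and the epididymis transcripts of the WT NCD libraries cannot be told apart here either. The genes called were Tecpr1 (0.74, adjusted p = 0.00391), Plekhm1 (0.87, adjusted p = 0.00463), Sh3glb1, a membrane-bending partner of UVRAG (0.48, adjusted p = 0.0387), and Trp53inp2 (2.06, adjusted p = 0.0306). In a fit of only the 6 chow libraries these 4 did not pass (adjusted p 0.0506 to 0.178). The Sh3glb1 call was lost in 11 of 12 leave-outs (adjusted p up to 0.122). Trp53inp2 read 651, 2386 and 650.0 CPM in MKO NCD and 231.5, 316 and 334 CPM in WT NCD. MKO NCD replicate 2 was the library far above the rest, and without it the change was 1.15 (adjusted p = 0.0181); its call was lost without WT HFD replicate 1 or any WT NCD library (up to 0.110). On HFD 0 of 35 passed between genotypes, against 3.57% of all tested genes. At an unadjusted p under 0.05 were 2 of 35 (5.71%), against 15.1% of all tested genes. The difference of diet effects passed for Plekhm1 alone (-1.16, SE 0.18, adjusted p = 0.0294), against 0.261% of all tested genes.

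The regulators carried members of the TFEB family, the transcription factors that switch on lysosomal and autophagy genes. Of 21 regulators, 5 rose and 1 fell with HFD in WT, against 9.5% and 8.28% of all tested genes. Tfe3 read 58.3, 61.5 and 59.0 CPM in WT HFD and 36.3, 36.4 and 37.3 CPM in WT NCD, a change of 0.70 (SE 0.10, adjusted p = 0.00117). Mitf rose by 0.97 (adjusted p = 0.0173) and Tfeb by 0.62 (adjusted p = 0.0296), while Deptor, which restrains the growth kinase mTOR, rose by 1.42 (adjusted p = 0.00236) and Sesn1, a sestrin, by 0.76 (adjusted p = 0.0295). Prkaa1, a catalytic subunit of the energy sensor AMPK, fell by 0.51 (adjusted p = 0.00927), and it was also lower with HFD in MKO (-0.63, adjusted p = 0.0198), the single regulator that passed there. Of all tested genes 1.04% rose and 0.966% fell in MKO. Leaving out 1 WT library ended the WT calls of Tfeb in 6 cases, Sesn1 in 5 and Mitf in 4 (adjusted p up to 0.140), and leaving out any MKO HFD library ended that of Prkaa1 in MKO (up to 0.0832), as did a fit of 6 libraries (0.0839). Tfeb in WT also did not pass without a count filter (0.0786).

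Between genotypes on HFD, 2 of 21 regulators, Mitf and Tfeb, were lower in MKO and 0 were higher, against 2.24% and 1.34% of all tested genes. Mitf read 12.9, 10.3 and 17.8 CPM in MKO HFD and 33.8, 42.4 and 24.4 CPM in WT HFD, a change of -1.29 (SE 0.24, adjusted p = 0.0192). Tfeb averaged 10.6 ± 1.16 CPM in MKO HFD and 18.1 ± 2.39 CPM in WT HFD (SD, n = 3 each), a change of -0.77 (SE 0.17, adjusted p = 0.0371). Both pairs of groups did not overlap, and macrophage markers were lower in the same MKO HFD libraries by the values above. The Mitf call was lost without MKO HFD or WT HFD replicate 1 or 2 (adjusted p up to 0.1001). The Tfeb call was lost without any MKO HFD or WT HFD library, MKO NCD replicate 3 or WT NCD replicate 2 (up to 0.211), and without a filter. On chow, Foxo1, a forkhead factor of autophagy genes, was higher in MKO by 0.73 (adjusted p = 0.0148) and Prkaa1 by 0.56 (adjusted p = 0.0198). On that diet 0 regulators were lower, and of all tested genes 2.22% were higher and 2.13% lower. The calls of Foxo1 and Prkaa1 were lost without 2 and 3 single libraries in turn (adjusted p up to 0.0633 and 0.0794) and in a fit of the 6 chow libraries (0.139 and 0.136). The WT NCD libraries with the epididymis transcripts enter both changes.

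**Figure D5:**
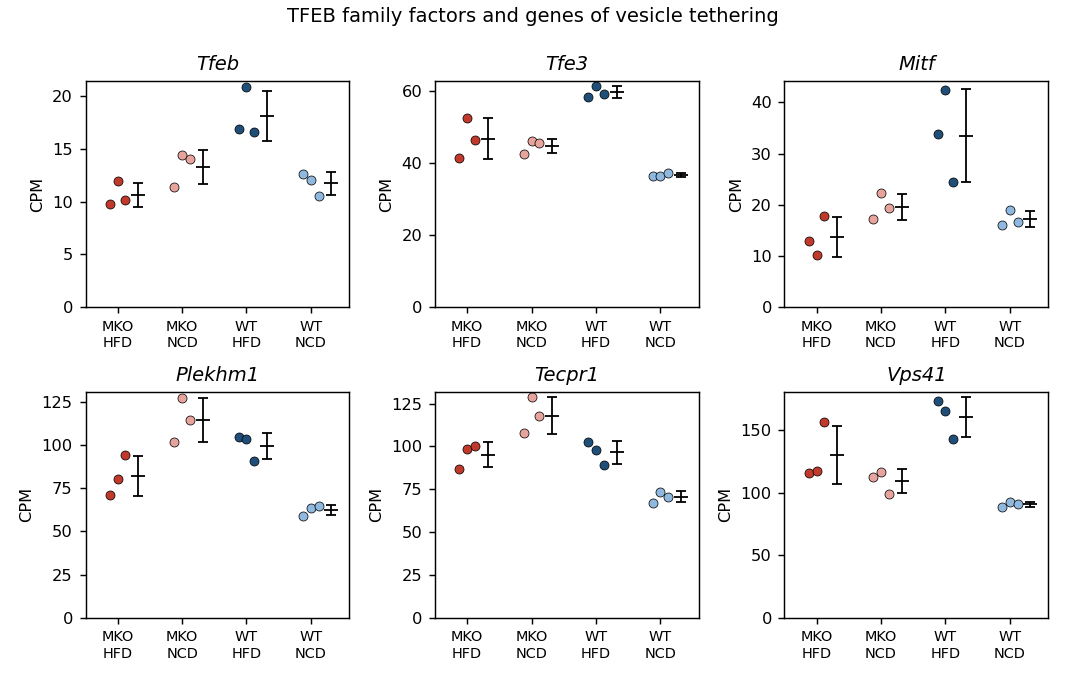
CPM of each library (points) with the group mean and SD (bars, n = 3) for 3 TFEB family factors (top) and 3 genes of vesicle tethering (bottom); all axes start at 0. Tfe3 sits at 58.3 to 61.5 CPM in WT HFD and at 36.3 to 37.3 CPM in WT NCD, and Plekhm1 is higher in MKO NCD than in WT NCD.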

How the data were processed

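Total RNA of gonadal fat was sequenced from stranded mRNA libraries, per the labels' protocols. The submitters' processing notes name the genome mm10, HISAT2 2.1.0, bcl2fastq 2.20.0, DESeq2, StringTie 1.3.4d and Trimmomatic. Whether counting used strand is not given in the sources used here. The deposited table holds raw read counts per gene, which were tested. It also holds the authors' FPKM and TPM values and normalized log2 expression values. The authors' deposited p-values, signed fold changes and test statistics (a score per gene) cover both comparisons of MKO with WT. TPM served for levels between genes, the authors' fold changes and p-values were quoted as theirs, and FPKM and log2 values were not used for results.

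In R 4.3.3, edgeR 4.0.16 was fitted to all 12 libraries by group, with TMM size factors, filterByExpr, robust quasi-likelihood and Benjamini-Hochberg adjustment at 0.05. The SE is the absolute log2 change over the square root of F. CPM uses TMM library sizes. Alternatives were other size factors, filters, DESeq2 1.42.0, limma-voom (limma 3.58.1), fits of 6 or 9 libraries, a replicate block and leaving out each library. The fit was tested on simulated data. In the main fit each p-value rests on a spread per gene that is shared by the 4 groups of 3 replicates and moderated over genes. Libraries outside a comparison therefore also enter its p-value.

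Members and lists were chosen with earlier results of these data known. All members may be named; folds with tests are given for members past the threshold or, under 5, for the 5 smallest p; other members are given by level, estimate or interval only. Tests are also given for at most 6 further genes per list. Promoters come from RefSeq, build GRCm38.p6, and strand and exons from GENCODE. Of the 34 members, 1 overlaps a gene on the same strand (Map1lc3b) and 11 overlap one on the other strand, among them Sqstm1, Optn, Uvrag and Rab7. Figures used Python 3.11.15 and matplotlib 3.10.9.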

Additional observations from a re-analysis of the deposited data

Results flagged for a closer look

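The diet effect on Plekhm1, the adaptor between RAB7, LC3 and HOPS, differed between genotypes by the interaction test, at -1.16 on the log2 scale (SE 0.18, adjusted p = 0.0294 in edgeR). It read 71.2, 80.6 and 94.1 CPM in MKO HFD and 102, 127 and 114 CPM in MKO NCD, a diet effect of -0.48 that did not pass. In WT it read 105, 103 and 90.8 CPM on HFD and 59.0, 63.6 and 64.7 CPM on NCD, a diet effect of 0.67 (adjusted p = 0.00411). The interaction call was lost with any 1 of 7 libraries left out, with values of -1.27 to -1.07 and adjusted p up to 0.109, and with the replicate block (adjusted p = 0.0770). The WT NCD libraries carry the epididymis transcripts, and the part of that tissue in the difference was not tested.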

How the results depend on the processing

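No named gene's change was reversed under the alternatives run. Of their values, 916 kept their side of the threshold, 170 lost it and 14 gained it.

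Members lower with HFD in WT numbered 2 with RLE size factors or a fit of only 6 libraries, 3 with upper-quartile factors or a filter of 1 CPM, and 5 in DESeq2, against 1. Members higher with HFD in MKO numbered 1 without a count filter and in limma-voom, 0 with 6 libraries, and 1 in a fit without WT NCD, added after seeing the data, against 2. DESeq2 also called 1 member lower there. For MKO against WT on NCD, members higher numbered 0 with RLE factors, no filter or 6 libraries and 2 in DESeq2, against 1, and members lower 0 with 6 libraries and 2 in DESeq2, against 1. On HFD, members lower numbered 0 without a filter and 3 in DESeq2, against 1. For the interaction DESeq2 called 1 member higher and 2 lower, against 0. The genes called in DESeq2 were 1731 for HFD in MKO, 2212 for the genotypes on NCD, 1740 on HFD and 1123 for the interaction, against 408, 882, 725 and 53. In limma-voom 1417 were called on NCD and 176 for the interaction. Fits of 6 libraries called 41 for HFD in MKO, 53 on NCD and 2260 on HFD. The cause was not tested.

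With the replicate block, members higher numbered 0 for HFD in MKO (160 genes called) and 0 on NCD (482 genes), members lower 0 on HFD (262 genes), and 12 genes were called for the interaction. Replicate numbers showed no clear pairing of the libraries. Same-numbered libraries of different groups deviated together with r over 0.1 in 3 of 18 pairs, against 6 of 36 differently numbered pairs. Of the 12 libraries, 0 correlated best with their own number in every other group. With 3 libraries per group this cannot exclude a pairing.

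Leaving out 1 library gave 4 to 8 members higher and 1 to 3 lower with HFD in WT (1884 to 6789 genes called), with 4 higher without WT HFD replicate 2. It gave 0 to 1 higher and 0 to 0 lower in MKO (75 to 480 genes), 0 to 1 higher and 1 to 1 lower on NCD (391 to 1028 genes), 0 to 0 higher and 0 to 1 lower on HFD (7 to 1580 genes), and 0 to 1 higher and 0 to 2 lower for the interaction (2 to 288 genes). The median of all genes shifted by over 0.1 without a filter (-0.18 for HFD in WT, -0.24 on NCD, 0.23 for the interaction) and in limma-voom (0.11 for HFD in MKO, -0.10 on NCD, 0.16 for the interaction), and on NCD and for the interaction without MKO NCD replicate 1 (-0.12 and 0.11) or 3 (-0.12 and 0.11). The lowest count of a member in any library was 519.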
